A study of Glycine max with 12 samples.

Results

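The genes described here are growth genes of soybean (Glycine max, cultivar Williams 82) whose transcripts were not counted in the dry seed. A gene model was a member when it had 0 counts in the dry seed library and at least 20 CPM (a gene's count normalised to the total count of its library) in both the early-maturation seed and the seedling. There were 121 members among 66210 gene models. They are 1.65% of the 7317 gene models that reached 20 CPM in both of those libraries. The remaining 7196 gene models at that level, all with at least 1 count in the dry seed, serve as comparison genes. The levels in early-maturation seed, dry seed and seedling chose the members, so they are given as a description.

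Polyadenylated RNA was sequenced in 12 libraries, 1 for each stage or organ, all from greenhouse plants of the same cultivar. Whole seeds were taken with globular embryos (0.8 to 1.1 mm long), heart embryos (2 to 2.5 mm), cotyledon-stage embryos (3 to 3.9 mm), at early maturation (6 to 7 mm), at mid maturation (1.1 to 1.3 cm, 150 to 250 mg fresh weight), at late maturation (1.2 to 1.5 cm, 230 to 350 mg) and dry (about 200 mg). The other libraries came from whole seedlings 6 days after imbibition, from young trifoliate leaves, nodule-free roots and stem internodes of plants 3 to 4 months old, and from unopened floral buds. The seed embryo was green apart from a yellow axis tip at mid maturation and yellow throughout at late maturation. How many plants or seeds went into a library is not given in the sources used here. A whole seed holds the embryo together with the seed coat and any endosperm, so a value is a mean over these tissues. In such bulk samples fewer cells of a type and less RNA per cell cannot be told apart. The 10 libraries with counts held 10296612 to 45726019 counts, of which the early-maturation seed had 38203658, the dry seed 21512278 and the seedling 18581576. The mid- and late-maturation libraries were deposited as RPKM (reads scaled for gene length and library depth), and these tables list genes above 0. Their labels add a HiSeq to the Genome Analyzer named for the others. The unit, the instruments and the gene models thus change together with the stage, and a step into or out of these 2 libraries cannot be told apart from that change. Each group has 1 library, so differences could not be held against replicate spread and were not tested. Intervals cover counting error only.

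During maturation a legume embryo stops dividing, fills its cells with protein and oil, and then dries. Many transcripts of growth are removed in that time, while others are stored in the dry seed and are present at imbibition. After imbibition the embryo resumes metabolism, elongates and builds its first green organs. The files do not pair the identifiers with gene names, and none of the 74818 identifiers matched the reference gene table used here, so the members are given by identifier with no function. For the same reason no tissue marker could be checked. Chromosomes are read from the identifiers themselves (Glyma07g08170 is on chromosome 7). No coordinates or sequences were used.

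The depth of the dry library sets what a count of 0 allows. A gene at 20 CPM would have been worth 430 counts in the dry seed, and 3 counts, the limit that a count of 0 allows, equal 0.139 CPM. The members had between 20.5 and 934 CPM at early maturation, with a median of 54.3. At its early-maturation level the lowest member would have given 440 dry counts. Against that floor, the lowest bound on the fall from early maturation to the dry seed was 147-fold, with a median lower bound of 390-fold. The minimum of 20 CPM and the count of 0 in the rule nearly fix the lowest bound. These bounds use library totals. With the effective library sizes of TMM they became 93.9-fold and 249-fold, and with those of DESeq2 83.4-fold and 221-fold.

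Glyma07g08170 (20.5 CPM) and Glyma19g27930 (20.6 CPM) lay just inside the early-maturation minimum. Glyma17g13550 (19.9 CPM) and Glyma04g32130 (19.9 CPM) lay just outside it. In the seedling, Glyma08g18080 (20.1 CPM) and Glyma03g27910 (20.2 CPM) were just inside and Glyma06g06870 (19.97 CPM) and Glyma11g14800 (19.5 CPM) just outside. A single dry count kept out Glyma07g03910, with 881 CPM at early maturation and 931 CPM in the seedling, and Glyma09g36080, with 619 and 162 CPM. In all, 158 genes missed the rule by 1 to 3 dry counts.

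**Figure D1:**
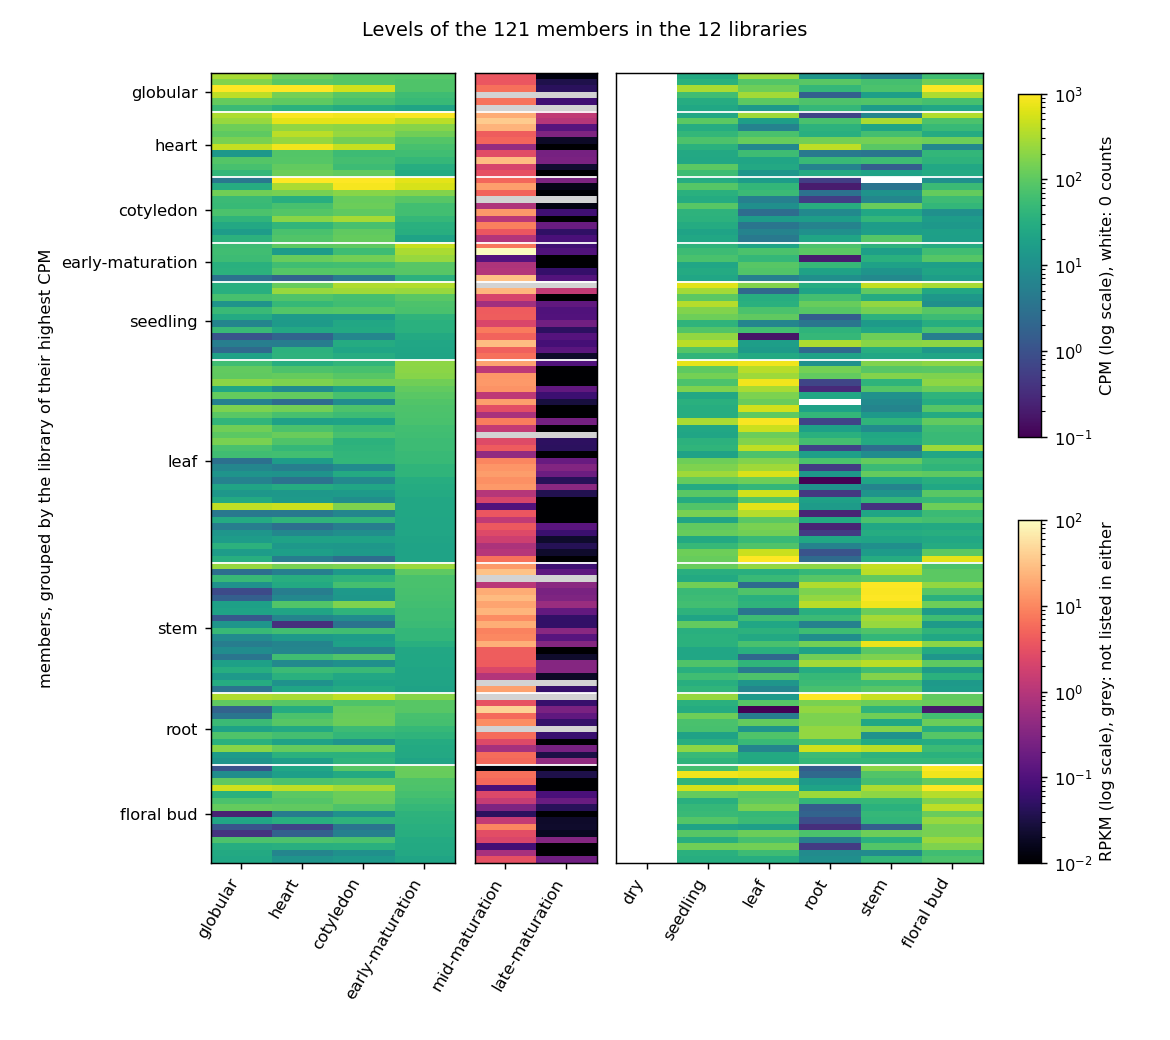
Each row is 1 of the 121 members, grouped by the count library in which its CPM was highest, and each column is a library. The outer panels show CPM on a log scale limited to 0.1 to 1000 (white, 0 counts) and the middle panel RPKM limited to 0.01 to 100 (grey, listed at neither stage, 9 members). The dry column is empty by the rule, and the late-maturation column is dark while the mid-maturation column is not.

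The members were still present at mid maturation and nearly gone at late maturation. Of the 121 members, 112 were listed in the mid-maturation table, and 92 of these had at least 1 RPKM. That is 82.1%, against 99.2% of the comparison genes and 62.5% of all genes with counts and RPKM. At late maturation 93 members were listed and 2 reached 1 RPKM. That is 1.79% of the 112, against 90.8% of the comparison genes and 55.3% of all genes. The median member had 4.29 RPKM at mid maturation and 0.0567 RPKM at late maturation, whereas the median comparison gene had 10.3 and 12.1 RPKM. Each of the 112 members was lower at late than at mid maturation. The same held for 3078 of 6764 comparison genes and for 18278 of all 35594 genes with counts and RPKM. Of the 112 members, 19 were listed at mid but not at late maturation, against 5 comparison genes and 2522 of all genes. At late maturation 69 of the 112 (61.6%) were under 0.1 RPKM, against 1.51% of the comparison genes and 24.6% of all genes. Under 0.5 RPKM were 108 (96.4%), against 5.65% and 37.4%.

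Folds were computed on the log2(RPKM + 0.5) scale, which understates the change of low genes, and a gene could be called when its higher library had at least 5 RPKM. All 51 members that could be called were at least 4-fold lower at late maturation. The same call was made for 12.2% of the comparison genes that could be called and for 12.5% of all such genes. No member had more than 1.33 RPKM at late maturation, so all 51 could be called only through mid maturation and the outcome was nearly fixed. Other genes could be called through either stage, so their shares are not a like background. With no RPKM minimum, 80 of the 112 members (71.4%) were at least 4-fold lower. The share of other genes was not computed at that setting, so this count has no background. The median log2 ratio of late to mid maturation was -3.03 over the 112 members and 0.16 over the comparison genes. Without a pseudocount, the 93 members listed at both stages fell by a median of 77.1-fold, with quartiles of 26.9 and 194. This leaves out the 19 members with no late value. A fall of at least 10-fold was seen in 86 of the 93 (92.5%; comparison genes 7.82%, all genes 12.6%). A fall of at least 100-fold was seen in 36 (38.7%; 1.13% and 1.9%).

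The members with most transcript at mid maturation lost it too. Glyma18g49240 had the highest mid-maturation value, 120 RPKM, and 0.102 RPKM at late maturation. Glyma07g39230 followed with 43.4 RPKM at mid and 0.268 RPKM at late maturation. Of the 15 members at 20 RPKM or more at mid maturation, the late values ran from 0.0530 to 1.33 RPKM. The largest ratios between the stages belonged to Glyma04g02610, with 13.6 RPKM at mid and 0.00495 at late maturation, and to Glyma14g10890, with 5.52 and 0.00440 RPKM. Each of these late values corresponds to a single read as recovered, so the ratios rest on 1 read.

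A few members kept more than most at late maturation. Glyma15g15370 had the highest late value, 1.33 RPKM after 25.1 RPKM at mid maturation. Glyma02g05450 followed with 1.25 RPKM after 20.5. The smallest falls were those of Glyma18g53150, from 1.08 to 0.383 RPKM, and Glyma13g35100, from 0.714 to 0.250 RPKM. Both of these were already low at mid maturation, and neither reached the 5 RPKM needed for a call.

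**Figure D2:**
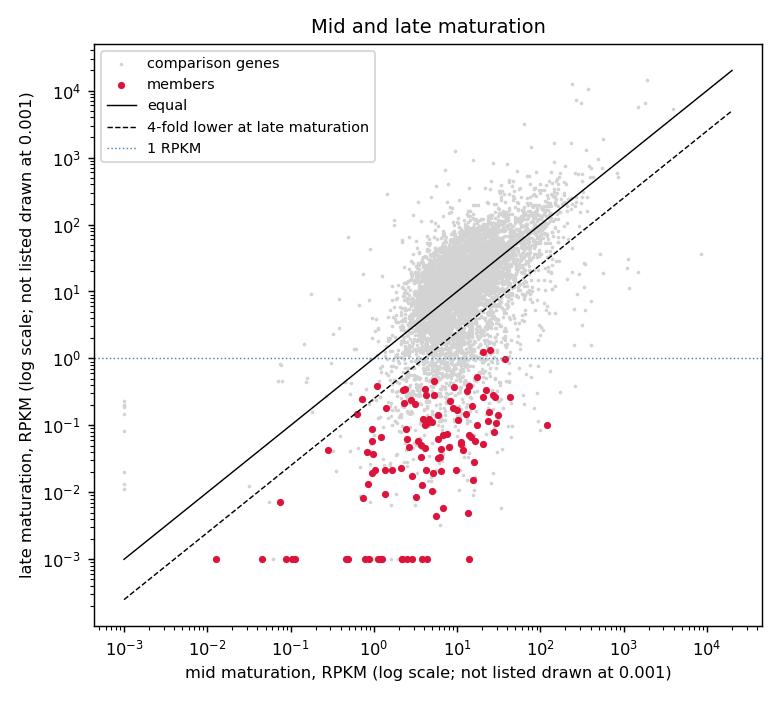
RPKM at mid maturation (x axis) against late maturation (y axis), both on log scales, for the 112 listed members (red) and the comparison genes (grey); genes not listed are drawn at 0.001. The solid line marks equal values, the dashed line a 4-fold lower late value and the dotted line 1 RPKM; 2 members lie above 1 RPKM at late maturation.

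The late-maturation level followed the number of counts in the dry seed across the genes at 20 CPM in early-maturation seed and seedling. The median late value was 0.0567 RPKM in the members, 0.164 RPKM in genes with 1 to 3 dry counts and 0.408 RPKM in those with 4 to 10. It was 1.05 RPKM in genes with 11 to 30 dry counts, 2.51 RPKM with 31 to 100, 6.15 RPKM with over 100 up to 300 and 20.2 RPKM with more. At mid maturation the same classes had medians of 4.29, 6.72, 6.63, 7.49, 7.95, 8.93 and 11.6 RPKM. The classes thus lay within a narrow range at mid maturation and were spread over more than 2 orders of magnitude at late maturation. The members stood at the low end of a graded series. The share at least 4-fold lower at late than at mid maturation, among genes that could be called, was 98.9% with 1 to 3 dry counts, 96.5% with 4 to 10, 79.9% with 11 to 30, 45% with 31 to 100, 10.3% with over 100 up to 300 and 0.961% above that.

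**Figure D3:**
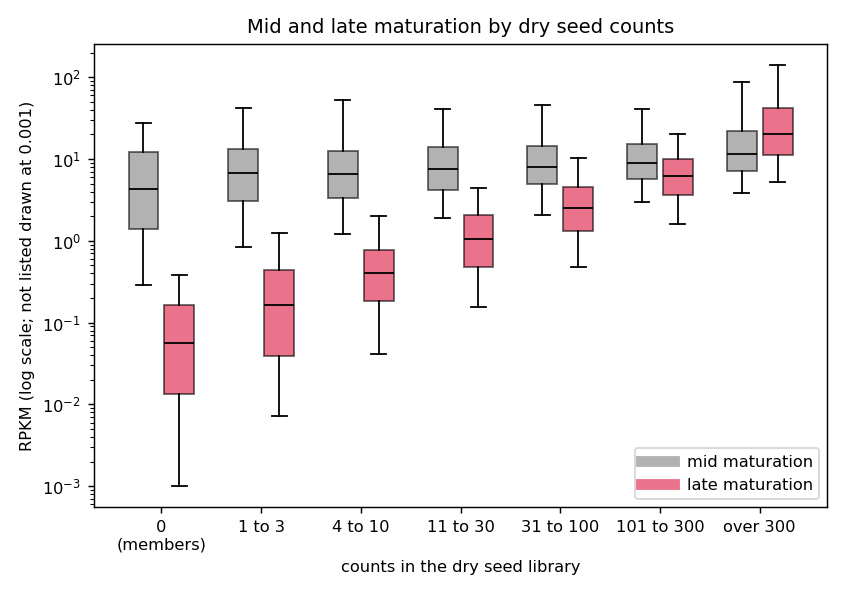
Boxes show RPKM (log scale) at mid maturation (grey) and late maturation (red) for genes at 20 CPM in early-maturation seed and seedling, split by their counts in the dry seed (x axis). Boxes span the quartiles with the median as a line, and whiskers the 5th to 95th percentile; genes not listed are drawn at 0.001. The red medians climb from 0.0567 to 20.2 RPKM while the grey ones run from 4.29 to 11.6 RPKM.

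Whether the members fell further between late maturation and the dry seed was not detectable at the depth of the dry library for most of them. Read numbers and gene lengths were recovered from the RPKM values of the 93 members listed at both stages. As recovered, the median member held 10 reads among 103601188 at late maturation. At that level the dry library would have held a median of 2.08 counts. For 40 of the 93 members more than 3 dry counts would have been found at the late level, and for 9 members more than 10. Where the true length is a multiple of the recovered one, the read number is too low by that multiple, and an early-maturation RPKM made with that length is too high.

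The members were also lower at mid than at early maturation, a step that cannot be told apart from the change of unit, instruments and gene models. With the recovered lengths, RPKM was computed for early maturation from its counts. The 19 members listed at mid but not at late maturation have no length and are left out of this step. The median mid value was 4.29 RPKM over all 112 listed members and 5.52 RPKM over the 93 with a length. Those left out thus tended to be lower at mid maturation, and the fall of the members may be understated. Lengths recovered too small act the other way, since they make the early-maturation RPKM, and with it the fall, too large. All 93 members with a length were lower at mid maturation, but so were 95% of the comparison genes and 85.1% of all genes, so this count is near the background. The median member went from 36.1 RPKM at early maturation to 5.52 RPKM at mid and 0.0735 RPKM at late maturation. A fall of at least 4-fold from early to mid maturation was called for 60 of the 93 members, or 64.5%, and a rise for none. The background was 24% of the comparison genes and 26% of all genes. The minimum of 20 CPM at early maturation favours a fall over a rise, in members and comparison genes alike. All genes met no such minimum, so their share is not a like background. This step runs from a count library to an RPKM library, and the median gene at 1 RPKM or more in both libraries moved by -1.14 on the log2 scale. After rescaling by that shift 36 of 90 members were called. The shares of the other genes were not rescaled, so 24% and 26% are no background for this count. From early to late maturation all 93 members were called lower, against 36.1% of the comparison genes and 35.5% of all genes. With no member above 1.33 RPKM at late maturation, all 93 could be called only through early maturation, where the rule set a minimum. The outcome was thus nearly fixed. Other genes could be called through either stage, so their shares are not a like background.

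Without a pseudocount, the median fall from early to mid maturation was 7.03-fold in the members, with quartiles of 3.26 and 15.1, and 2.57-fold in the comparison genes. The 19 members with no late value are again left out. Of both steps, the fall from mid to late maturation was the larger in 78 of the 93 members (83.9%; comparison genes 21.2%). On the scale with the pseudocount it was the larger in 57 (61.3%), against 19.5% of the comparison genes and 25.9% of all genes. Members differed in their level at mid maturation. Of the 112 listed members, 20 were under 1 RPKM at mid maturation. They had held a median of 49.1 and up to 245 CPM at early maturation, in another unit and with other gene models. An earlier loss of these 20 cannot be told apart from that change. Glyma13g27050 had 121 CPM at early maturation and 0.0128 RPKM at mid maturation, the lowest value. Glyma18g06210 had 38.1 CPM and then 0.0458 RPKM. At the other end, Glyma18g49240 had 140 RPKM at early and 120 RPKM at mid maturation, before its fall to 0.102 RPKM.

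The seedling held the members at about their early-maturation level as a group, but not gene by gene. The median member reached 105% of its early-maturation CPM, with quartiles of 49.5% and 224% and extremes of 2.70% and 1622%. In the comparison genes the median was 94.0% and the quartiles were 66.6% and 137%. In the seedling 62 members (51.2%; comparison genes 45%) were higher and 59 lower than at early maturation. Within 2-fold lay 56 members (46.3%), against 75.6% of the comparison genes. The median log2 ratio of 0.07 turned to -0.11 with TMM scaling and to -0.01 with DESeq2 size factors, so it has no direction. A 4-fold higher level in the seedling was found for 15 members, or 12.4%, beside 3.52% of the comparison genes and 3.66% of all genes at 20 CPM in both libraries. A 4-fold lower level was found for 7 members, or 5.79%, beside 1.42% and 1.49%. Since the rule set a minimum of 20 CPM in both libraries, these shares are a description, and a gene near the minimum could not fall 4-fold.

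The 15 members that came back at least 4-fold higher had medians of 26.7 CPM at early maturation, 209 CPM in the seedling, 265 CPM in leaf and 2.28 CPM in root. Leaf was the library of the highest CPM for 8 of them, seedling for 3, floral bud for 3 and root for 1. Glyma01g02230 had the largest ratio, 23.6 CPM at early maturation and 382 CPM in the seedling. That is 16.2-fold (95% counting interval 15.1 to 17.4). Glyma12g15460 went from 26.6 to 224 CPM, or 8.43-fold (7.87 to 9.04). Glyma18g44300 had the highest seedling level, 808 CPM after 117 CPM at early maturation, and Glyma03g26740 followed with 707 CPM after 209 CPM.

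Since the rule asked for 20 CPM in the seedling, only a member abundant at early maturation could be 4-fold lower there. The abundance and seed peaks of such members are therefore largely set by the rule and are given as a description. The 7 members that came back at least 4-fold lower had 184 to 934 CPM at early maturation and 25.2 to 87.9 CPM in the seedling. Each had its highest CPM in a young seed, 2 in heart, 3 in cotyledon-stage and 2 in early-maturation seed. Glyma02g05450, the most abundant member at early maturation, had 325 CPM in globular, 956 in heart, 838 in cotyledon-stage and 934 in early-maturation seed. It then stood at 25.2 CPM in the seedling, 268 in leaf, 0.644 in root, 6.70 in stem and 349 in floral bud. Its seedling level was 37.0-fold below early maturation (33.8 to 40.6). Leaf and floral bud, but not the seedling, thus held this gene at a level within 4-fold of early maturation.

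Glyma02g37610 had 4.02 CPM in globular, 1487 in heart, 2636 in cotyledon-stage and 679 in early-maturation seed. Outside the young seed it was low everywhere, with 29.5 CPM in the seedling, 16.3 in leaf, 0.545 in root, 10.3 in floral bud and 0 counts in stem. Its seedling level was 23.0-fold below early maturation (21.1 to 25.1). The gene passed the seedling minimum of 20 CPM, so it is a member, but its profile was that of a young seed transcript.

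**Figure D4:**
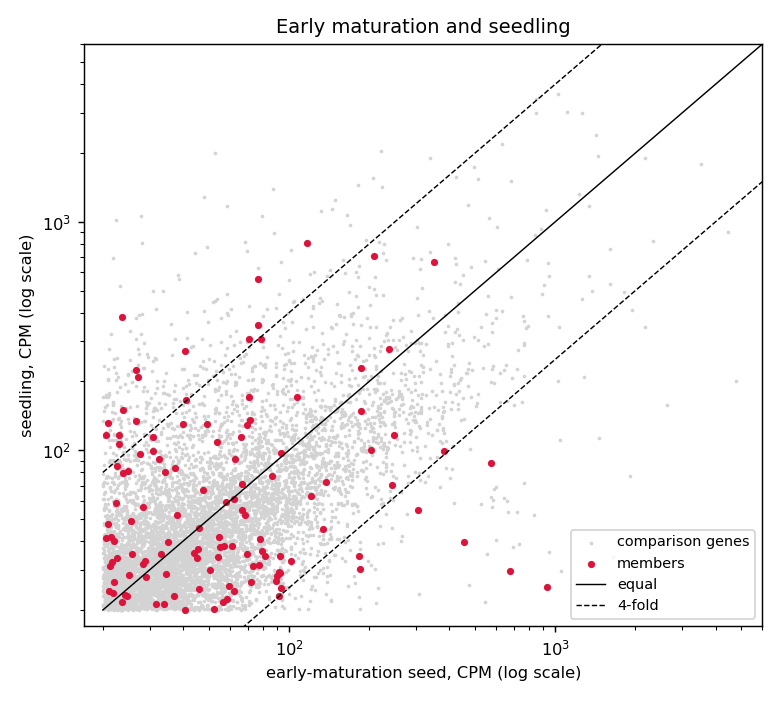
CPM in early-maturation seed (x axis) against seedling (y axis), both on log scales, for the 121 members (red) and the comparison genes (grey). The solid line marks equal levels and the dashed lines 4-fold differences; 15 members lie on or above the upper and 7 on or below the lower dashed line.

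Measured against the highest of the 4 young seed stages, the median member reached 62.5% in the seedling, with quartiles of 28.4% and 137%. The comparison genes had a median of 67.8% and quartiles of 45.3% and 102%. The seedling exceeded every young seed stage for 47 members (38.8%; comparison genes 25.9%) and stood at 25% or less of the highest stage for 24 (19.8%; comparison genes 5.45%). Set beside the mature organs, the seedling was above leaf, root, stem and floral bud for 20 members (16.5%; comparison genes 12.4%) and below all of these for 12 (9.92%; 14.1%). The shares for the mature organs lie near those of the comparison genes, while those for the young seed stages were higher in the members.

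Many genes with no dry counts did not come back to 20 CPM. Of 10235 gene models at 20 CPM or more at early maturation, 424 had 0 dry counts, and 121 of these (28.5%) reached 20 CPM in the seedling. A further 195 had 1 to 20 CPM there and 108 had under 1 CPM, 53 of them with 0 counts. Over all gene models at 20 CPM or more at early maturation, 71.5% reached that level in the seedling. Seen from the seedling, 530 gene models had at least 20 CPM there and 0 dry counts. Of these, 209 had been under 1 CPM at early maturation and 200 had been at 1 to 20 CPM.

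The 7 count libraries that the rule did not use show where else the members were transcribed. At least 1 CPM was found for 118 members in globular, 119 in heart and 121 in cotyledon-stage seed, for 119 in leaf, 102 in root, 119 in stem and 120 in floral bud. Of all gene models, 47.5% reached 1 CPM in globular, 47.7% in heart, 48.9% in cotyledon-stage seed, 47.8% in leaf, 50.3% in root, 49.4% in stem and 53.8% in floral bud. For the comparison genes the shares were 99.4% in globular, 99.8% in heart, 100% in cotyledon-stage seed (to 3 digits), 99.5% in leaf, 98.7% in root, 99.6% in stem and 99.9% in floral bud. In all 7 libraries 95 members (78.5%) had at least 1 CPM, against 98.2% of the comparison genes. At 20 CPM in all 7 the shares were 19.8% and 65.8%. The members were thus broadly detected but at uneven levels.

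**Figure D5:**
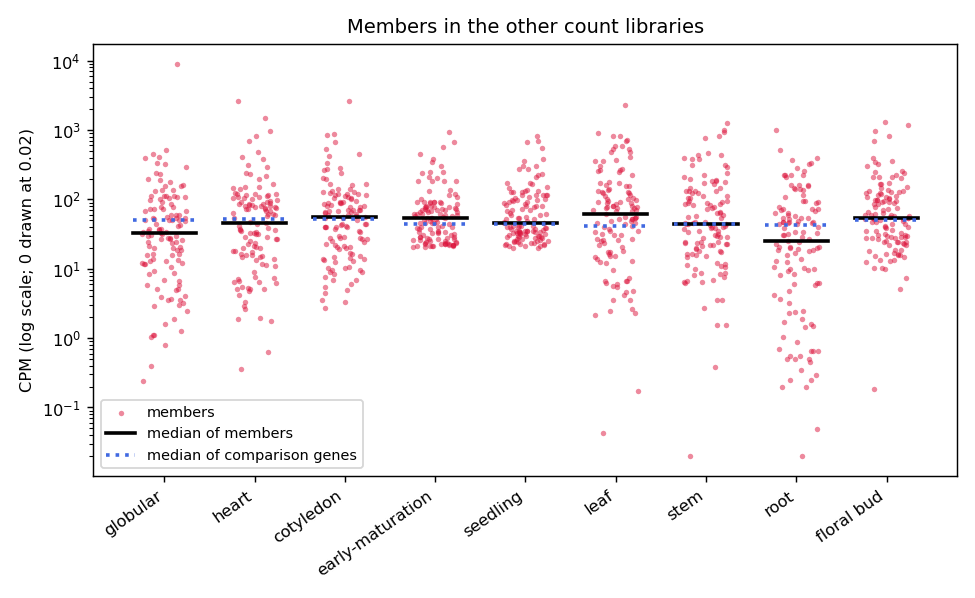
CPM (log scale) of each of the 121 members (points, spread sideways for legibility) in 9 count libraries, without the dry seed; a count of 0 is drawn at 0.02. Black lines are medians of the members and dotted blue lines medians of the comparison genes. In root 19 members lie under 1 CPM.

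The members cannot be highest in dry seed by the rule, so the library of the highest CPM was taken among the other 9 count libraries for members and comparison genes alike. Leaf was that library for 31 members (25.6%; comparison genes 15.2%), stem for 20 (16.5%; 11.8%) and floral bud for 15 (12.4%; 7.82%). The shares of seedling, with 12 members (9.92%; 8.41%), and of root, with 11 (9.09%; 8.56%), were close to those of the comparison genes. Cotyledon-stage seed was highest for 10 members (8.26%; 5.99%). The remaining young seeds had lower shares than in the comparison genes, heart for 10 members (8.26%; 14.5%), globular for 6 (4.96%; 16.2%) and early maturation for 6 (4.96%; 11.5%), although TMM scaling raised the last to 11. The highest leaf level was that of Glyma19g27930, 2277 CPM, which had 20.6 CPM at early maturation, 116 in the seedling, 691 in floral bud, 29.9 in stem and 2.38 in root. Its level in leaf was far above that in every seed library, where it ran from 2.74 to 32.0 CPM before the dry stage. In stem Glyma18g53150 was highest with 1260 CPM, beside 336 CPM in root and 2.48 CPM in leaf. In root Glyma12g35410 was highest with 1002 CPM, beside 468 CPM in stem and 14.8 CPM in leaf. In floral bud Glyma13g42340 was highest with 1309 CPM, beside 599 CPM in leaf, 561 CPM in the seedling and 511 CPM in globular seed.

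Root was the organ in which members were most often missing. Under 1 CPM in root were 19 members (15.7%), against 1.25% of the comparison genes. These 19 had a median of 0.496 CPM in root, 22.4 in stem, 86.8 in floral bud, 87.9 in the seedling and 141 CPM in leaf. At least 20 CPM in leaf together with under 1 CPM in root was found for 16 members (13.2%; comparison genes 0.959%). The opposite direction was present as well. In the 4-fold contrasts that follow, the higher organ also had to reach 20 CPM. Leaf stood at least 4-fold above root for 43 members (35.5%; comparison genes 9.06%) and root at least 4-fold above leaf for 21 (17.4%; 8.16%). Stem stood at least 4-fold above root for 35 members (28.9%; 3.47%) and root above stem for 5 (4.13%; 0.889%). Glyma07g39230, a member with a high mid-maturation level, was highest in root, with 226 CPM in root, 39.4 in stem, 28.9 in the seedling, 0.186 in floral bud and 0.0428 in leaf.

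The fall from early to mid maturation differed between members grouped by the library of their highest CPM. This step again cannot be told apart from the change of unit, instruments and gene models. The 17 members with a length that were highest in stem fell by a median of 2.77-fold from early to mid maturation, and the 8 that were highest in root by 3.85-fold. The 21 highest in leaf fell by 7.32-fold and the 12 highest in floral bud by 13.8-fold. The groups highest in a young seed, of 4 to 9 members each, fell by 7.13-fold (heart) to 16.9-fold (early maturation). At mid maturation the stem group held a median of 14.7 RPKM, the leaf group 6.69, the root group 5.84 and the floral bud group 2.33 RPKM. Over all listed members, also those with no late value, these medians were 12.9, 3.32, 5.82 and 1.39 RPKM, so leaf then lay below root. By late maturation the medians of the members with a length were 0.160, 0.0481, 0.104 and 0.0275 RPKM in the same order. Each was under 1% of the group's level at early maturation. The seedling medians of these groups were 45.0 RPKM (stem), 74.4 (leaf), 39.1 (root) and 30.9 RPKM (floral bud).

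Among the 4 young seed stages, early maturation was the highest for 47 members (38.8%; comparison genes 30.8%), globular for 28 (23.1%; 28.5%), cotyledon for 26 (21.5%; 17.6%) and heart for 20 (16.5%; 23.2%). The comparison genes were thus spread over the stages in a similar way, and the members differed more in the size of their changes. Early maturation was at least 4-fold above globular seed for 38 members (31.4%; comparison genes 3.29%), whichever stage was highest. Globular seed was at least 4-fold above early maturation for 6 (4.96%; 2.1%). All 4 stages lay within 4-fold for 67 members (55.4%), against 92.1% of the comparison genes. Glyma08g21390 had the highest globular level, 9092 CPM, and fell through 2639 CPM in heart and 532 CPM in cotyledon-stage seed to 78.7 CPM at early maturation. It stood at 308 CPM in the seedling and 1178 CPM in floral bud. In globular seed Glyma18g06210 was the lowest member with 0.241 CPM, and it had 4.72 CPM in heart, 10.6 in cotyledon-stage and 38.1 in early-maturation seed. Glyma19g40020 rose likewise from 0.394 CPM in globular through 1.77 and 5.51 to 32.4 CPM at early maturation.

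The members lay on all 20 chromosomes, with 2 on chromosome 9 (1.65%; 5.08% of gene models) to 10 each on chromosome 1 (8.26%; 4.74%) and chromosome 7 (8.26%; 4.95%). The recovered length had a median of 1456 nt in the members and 1723 nt in the comparison genes. There were 4 pairs of members with at most 4 gene models between them. Glyma07g34050 and Glyma07g34060 on chromosome 7 are next to each other, and both were highest in stem, with 125 and 59.6 CPM, and low in leaf, with 3.60 and 4.67 CPM. Glyma15g15360 and Glyma15g15370 on chromosome 15 are also neighbours but differed. Glyma15g15360 had 998 CPM in stem, 226 in root, 54.8 in the seedling and 1.62 CPM in globular seed. Glyma15g15370 had 106 CPM in stem, 20.6 in root, 279 in the seedling and 33.6 CPM in globular seed. Both fell from mid to late maturation, from 27.0 to 0.284 RPKM and from 25.1 to 1.33 RPKM. How reads that match several places were divided is not given in the sources used here, so values of neighbouring genes that are close copies would be uncertain.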

How the data were processed

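For 10 libraries the authors deposited the raw count of reads mapped to each of 66210 gene models. The submitters' processing notes name Bowtie. For mid and late maturation the authors deposited RPKM of genes above 0 only, and there the notes name Bowtie and bedtools. The genome build, the annotation and tool versions: not given in the sources used here. Of the members, 9 were listed in neither RPKM table, and for 7 of these an identifier differing in the last digit was listed and was not used in its place.

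CPM is the count normalised to the library's total over all gene models. TMM factors (edgeR 4.0.16) and DESeq2 1.42.0 size factors, in R 4.3.3, were alternatives. Folds between counts carry exact (Clopper-Pearson) 95% intervals of the conditional binomial, and the floor is 3 counts. Depths of 59542387 and 103601188 reads, and lengths of 38391 genes, were recovered from RPKM as the smallest whole length of at least 100 nt at which both values were whole reads within 0.002. The recovery was tested on simulated data, where most lengths were exact and the others too small, which makes RPKM computed from counts too high. Calculations used scipy 1.17.1, pandas 2.3.3 and numpy 2.4.6 under Python 3.11.15.

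The members and lists were chosen with earlier results of these data known. Genes were named as the 2 highest and 2 lowest members for each measure, the highest in each organ, and those at the edges of the rule; the adjacent pairs were chosen after their values were seen. Lists by gene description and promoter motifs were not applied, since no identifier matched.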

Additional observations from a re-analysis of the deposited data

How the results depend on the processing

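The number of members followed the limits of the rule: 269 with a minimum of 10 CPM, 41 with 40 CPM, 279 with at most 3 and 502 with at most 10 dry counts, against 121. TMM and DESeq2 scaling gave 127 and 126. Of the 41 members at 40 CPM, 31 had at least 1 RPKM at mid and 1 at late maturation, 2 were 4-fold lower and 6 were 4-fold higher in the seedling, and the median log2 ratio of seedling to early maturation was 0.23. At late maturation 4 members reached 0.5 RPKM and 0 reached 2 RPKM. With no RPKM minimum 80 of 112 members were at least 4-fold lower at late than mid maturation, with no share of other genes beside it. After rescaling by the median ratio (0.50 on the log2 scale) 66 of 66 could be called and were, again only through their mid-maturation value. From early to mid maturation the rescaled count was 36, against 60. At a 2-fold threshold the seedling was lower for 31 members and higher for 34. TMM scaling moved the median log2 ratio of seedling to early maturation to -0.11 and gave 11 members with their highest CPM at early maturation, against 6. At 20 CPM 78 members were found in globular seed. The lowest and median lower bounds of the fall to the dry seed, 147-fold and 390-fold, were 93.9-fold and 249-fold with TMM and 83.4-fold and 221-fold with DESeq2 sizes, alternatives chosen after seeing the data. The other 39 of 61 alternatives left their count within 1.5 times, or were the median with DESeq2 size factors, -0.01, whose sign also turned. No paired analysis was possible because each group has 1 library. The dry library's depth limits any statement on a further fall after late maturation.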
